A study of Mus musculus with 4 samples.

Results

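Genes that report on or restrain Wnt signalling were followed by symbol in 4 single-cell libraries of mouse lung: Axin2, Nkd1, Notum, Lef1, Wif1, Rnf43, Znrf3, Lgr5 and Apcdd1. All 9 of them were found among the 22547 features listed by every library. The libraries came from Gramd2creERT2;mTmG mice, which carry a tamoxifen-inducible Cre under the promoter of Gramd2, which marks type I (AT1) cells of the alveolus, and a reporter that switches from tdTomato to EGFP after recombination. The day 0 library held GFP+ lung cells straight after flow sorting. The libraries of days 8, 13 and 20 held organoids grown from such cells with MLg fibroblasts, an established murine line from lung, in growth factor-reduced Matrigel with serum and SB 431542, an inhibitor of the TGF-beta type I receptor, and were enriched with EpCAM beads. There was 1 library per day, and the sources used here do not give the number, age or sex of the animals. No test between days was therefore possible, and every interval below covers counting error only.

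Cells were kept with at least 500 genes and at most 15% mitochondrial UMIs (unique molecular identifiers, the counted RNA molecules), which left 7350, 7893, 9311 and 9178 cells with median depths of 2558.5 (day 0), 17075 (day 8), 9527 (day 13) and 12791 UMIs (day 20). Pairs of libraries shared between 19 and 30 cell barcodes. AT2-like cells were those with at least 5% of their UMIs from Sftpc, the surfactant protein C gene of alveolar type II (AT2) cells, and numbered 97, 334, 482 and 575 at days 0, 8, 13 and 20. All 11 AT2 markers had UMIs in them on each day. Between 1 and 18 cells per library had 4 to 5% Sftpc, and between 5 and 24 had 5 to 6%. The other classes were named from 13 marker lists, and the labelled cell type, alveolar epithelium, was a minority: myeloid-like cells made up 24.9% of cells at day 0 and 84.8, 68.7 and 56.6% at days 8, 13 and 20. Cultured AT1-like cells, 85 to 94 per library, had a higher median score for the AT2 list than for the AT1 list, so their name rests on the gate. Levels are CPM, the UMIs of a gene per 1000000 UMIs of its class and day (from 3′ ends and so not scaled by gene length) with exact 95% Poisson intervals. A gene was called higher or lower when the ratio of CPM was at least 2-fold, the larger side reached 5 CPM and the exact 95% interval of the ratio excluded 1.

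In canonical Wnt signalling, a ligand bound to a Frizzled receptor and LRP5 or LRP6 stops the destruction complex from degrading beta-catenin, which then acts on genes with TCF/LEF factors. Several of the genes it turns on feed back on the pathway. Axin2 is a scaffold of the destruction complex, Nkd1 binds Dishevelled, and Notum is a secreted enzyme that removes the lipid Wnt needs for activity. Wif1 and Apcdd1 bind Wnt outside the cell, Rnf43 and Znrf3 are ubiquitin ligases that clear Frizzled from the surface, Lgr5 is an R-spondin receptor that blocks these ligases, and Lef1 is one of the TCF/LEF factors. In the adult lung, Wnt from nearby fibroblasts maintains a subset of AT2 cells that can act as stem cells and is marked by Axin2.

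In mm10, chromosome 11 holds Axin2 (108920349 to 108950783, plus strand), Rnf43 (87662722 to 87735539, plus), Znrf3 (5276324 to 5444847, minus) and Notum (120653788 to 120661175, minus). Nkd1 lies on chromosome 8 (88521354 to 88594884, plus) and Lef1 on chromosome 3 (131110471 to 131224356, plus). Chromosome 10 holds Wif1 (121033960 to 121100650, plus) and Lgr5 (115450311 to 115587780, minus). These spans are of whole protein-coding genes, exons and introns together, in GENCODE vM21. Overlapping genes on the opposite strand are annotated for Axin2, Notum, Lef1, Rnf43 and Lgr5, and how the authors' counting treated strand is not stated in those sources. On the same strand, Gm45496 overlaps Nkd1, Gm42449 overlaps Lef1 and 1110028F11Rik overlaps Rnf43.

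RefSeq promoters (GRCm38.p6, 250 bases before to 50 after a start) were found for 5 of the 9 members, 9 starts in all. The TCF/LEF core was searched on both strands as CTTTGAT or CTTTGTA, and also with the endings of CTTTGAA and of CTTTGTT, with no overlap between these motifs on a strand. Of the 9 starts 1 held a match, against 16.9% of all 32851 promoters in that table. Shown are the promoter of Nkd1, the member with the highest level in AT2-like cells, that of Axin2, the usual marker of Wnt response, and the Lef1 start that held the match, CTTTGTA on the minus strand from position -147, in capitals. The windows of Nkd1 (chr8:88527383-88527682), Axin2 (chr11:108920099-108920398) and Lef1 (chr3:131156044-131156343) are all on the plus strand and written 5′ to 3′. The Axin2 window begins before the gene span given above, whereas those of Nkd1 and Lef1 lie inside their spans, at internal starts.
Nkd1: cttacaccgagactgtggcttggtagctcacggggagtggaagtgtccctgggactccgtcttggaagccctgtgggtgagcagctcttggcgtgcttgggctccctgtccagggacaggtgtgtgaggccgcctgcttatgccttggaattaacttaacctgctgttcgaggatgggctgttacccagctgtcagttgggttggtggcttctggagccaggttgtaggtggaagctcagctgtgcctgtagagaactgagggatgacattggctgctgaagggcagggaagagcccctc
Axin2: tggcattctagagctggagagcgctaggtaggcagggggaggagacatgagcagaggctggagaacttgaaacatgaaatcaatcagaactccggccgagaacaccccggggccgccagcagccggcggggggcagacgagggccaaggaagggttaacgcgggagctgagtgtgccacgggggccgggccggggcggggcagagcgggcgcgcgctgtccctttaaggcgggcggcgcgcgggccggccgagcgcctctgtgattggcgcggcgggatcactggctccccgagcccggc
Lef1: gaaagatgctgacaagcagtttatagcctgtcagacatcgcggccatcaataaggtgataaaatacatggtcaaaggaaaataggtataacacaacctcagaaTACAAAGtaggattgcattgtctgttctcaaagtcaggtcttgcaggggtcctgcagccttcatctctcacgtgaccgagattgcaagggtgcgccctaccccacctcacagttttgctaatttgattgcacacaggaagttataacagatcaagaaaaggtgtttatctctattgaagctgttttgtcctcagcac
No match says only that these letters are not in this window, and the match in Lef1 is a description, not a site.

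Across the gated classes the 9 genes had separate strongholds. Nkd1 was the one member that stood high in AT2-like cells, Lef1 was highest in T and NK-like cells, Wif1 in ciliated-like cells of day 0, and Axin2 and Apcdd1 in mesenchymal-like cells. Rnf43 and Znrf3 were spread at low level over the epithelial classes, Znrf3 over mesenchymal-like cells as well, and Notum and Lgr5 stayed below 10 CPM in all 29 sums of a class and a day. The heat map of class levels shows this pattern.

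**Figure D1:**
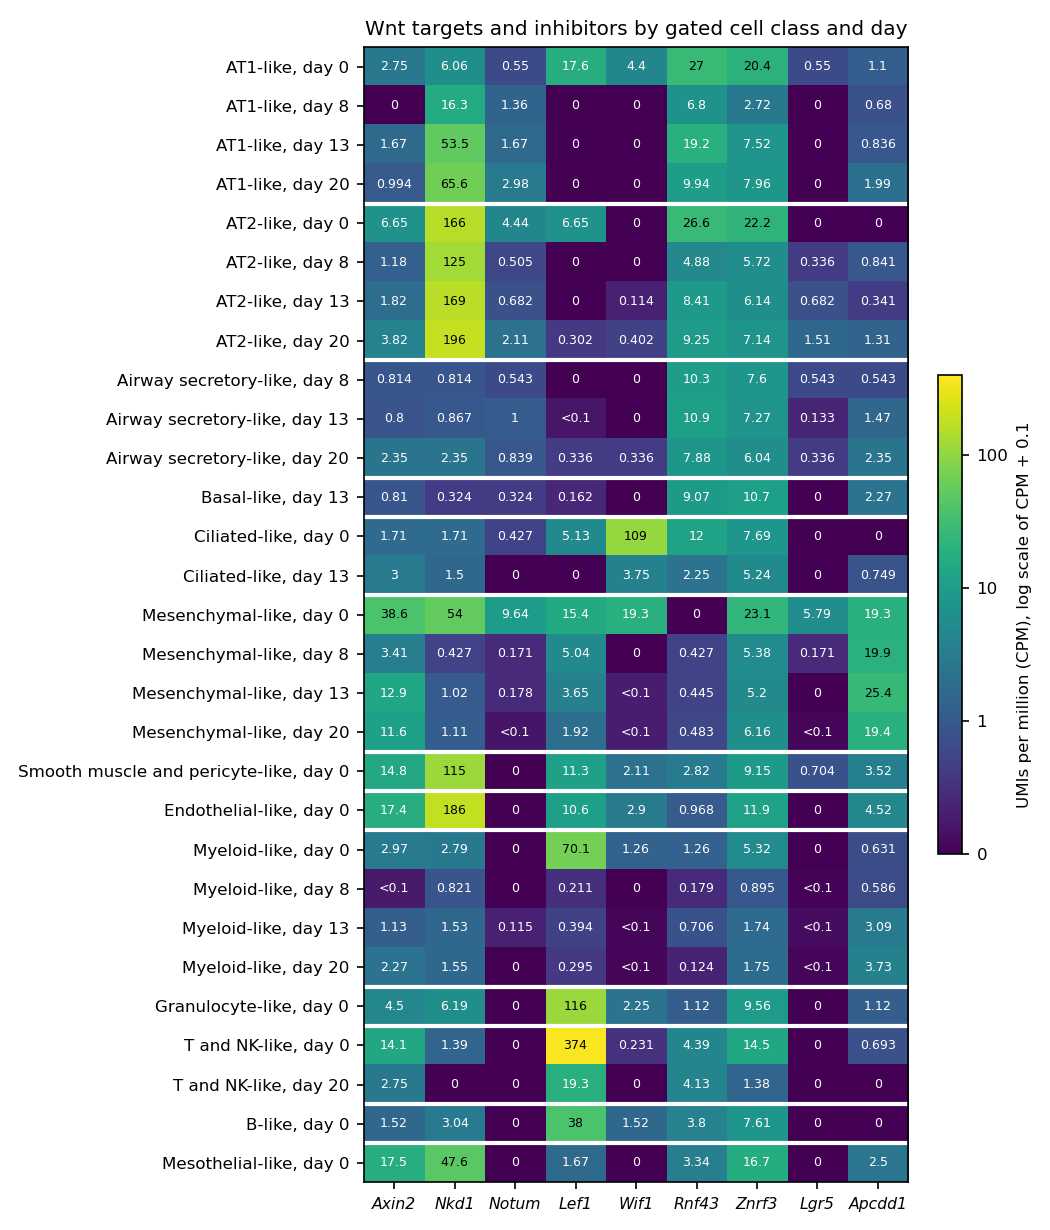
Level of each gene (columns) in each gated class and day with at least 50 cells (rows), in CPM, with colour on a log scale of CPM + 0.1. Nkd1 lies between 125 and 196 CPM in AT2-like cells of all 4 libraries, while Lef1 peaks at 374 CPM in T and NK-like cells and Wif1 at 109 CPM in ciliated-like cells, both at day 0.

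Nkd1 was measured at 166 CPM (131 to 208; 75 UMIs) in AT2-like cells at day 0, 125 CPM (116 to 134; 744 UMIs) at day 8, 169 CPM (161 to 178; 1491 UMIs) at day 13 and 196 CPM (187 to 204; 1944 UMIs) at day 20. The cultured libraries were thus in the order of their days, with intervals that do not overlap, while the wide day 0 interval overlapped that of day 8 and held those of days 13 and 20. The day 20 level was 1.56 times that of day 8 (1.44 to 1.70), 1.15 times that of day 13 (1.08 to 1.24) and 1.18 times that of day 0 (0.93 to 1.5), all short of 2-fold. Without AT2-like cells that carried 3 or more markers of another lineage the first of these ratios was 2.08 and passed the rule. That filter left 129 of 334 cells at day 8, 65 of 482 at day 13 and 272 of 575 at day 20. Under the same filter the log2 ratio of day 20 to day 13 was -0.09, against 0.21 in all AT2-like cells.

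Per cell, the culture days came in the same order, with counting intervals that overlap between neighbouring days. Every cell was thinned at random to 2000 UMIs, and averaged over all possible draws an Nkd1 UMI was found in 28.0% of AT2-like cells at day 0, 20.9% at day 8, 28.0% at day 13 and 32.9% at day 20. The SD between draws was 3.49, 1.76, 1.68 and 1.67 percentage points. In the single draw that is plotted, the shares were 27.3% (17.7 to 38.6, Clopper-Pearson), 21.7% (17.4 to 26.6), 27.8% (23.9 to 32.1) and 34.3% (30.4 to 38.4). This draw kept the order of days 13 and 20, and their order in other draws was not examined. Days 0 and 13 both averaged 28.0%, so a single draw cannot order them. Thinning left out 20, 7, 4 and 12 shallower cells. Without thinning the shares were 43.3, 53.3, 73.2 and 80.5%, which follow depth as well. Myeloid-like cells, which are not known as a source of Nkd1 and give the background of free RNA, had an Nkd1 UMI in 0.776% of cells at day 0 and in 0.201 to 0.215% in culture after the same thinning. At day 20 the myeloid-like level was 1.55 CPM, or 0.794% of that in AT2-like cells.

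Among cultured epithelial cells Nkd1 separated the alveolar from the airway classes. Airway secretory-like cells had 0.814, 0.867 and 2.35 CPM at days 8, 13 and 20, so that AT2-like cells were 154-fold (52.4 to 747), 196-fold (114 to 368) and 83.2-fold (49.5 to 153) higher. Of genes tested between these classes, 17.7, 23.6 and 19.9% were called in either direction. Basal-like cells of day 13 had 2 UMIs (0.324 CPM). Mesenchymal-like cells of the cultures, to which fibroblasts had been added, had 0.427 to 1.11 CPM, against 54.0 CPM (28 UMIs) in the mesenchymal-like cells of the sorted lung library.

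AT1-like cells differed by day. They held Nkd1 at 6.06 CPM (11 UMIs) at day 0, 16.3 CPM (24 UMIs) at day 8, 53.5 CPM (64 UMIs) at day 13 and 65.6 CPM (66 UMIs) at day 20. Nkd1 was 4.02 times higher at day 20 than at day 8 (2.49 to 6.71), the 1 member called of 3 that reached 5 CPM, where 11.0% of 9996 genes were called. The sorted AT1-like cells were 27.5-fold below AT2-like cells (14.5 to 57.4), and 25.2% of genes were called between those classes. In the cultured AT1-like cells the level was 13.0, 31.6 and 33.6% of that in AT2-like cells at days 8, 13 and 20. AT2 marker RNA was found in the same cells: as a share of the AT2-like level at those days, Lamp3 stood at 14.9, 37.6 and 15.3%, Cxcl15 at 27.1, 24.7 and 11.3% and Slc34a2 at 9.29, 10.7 and 2.95%. Its part in the Nkd1 level was not tested.

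Sorted lung held other sources of Nkd1. Endothelial-like cells had 186 CPM (576 UMIs) at day 0, close to the 166 CPM of AT2-like cells, with smooth muscle and pericyte-like cells at 115 CPM (163 UMIs) and mesothelial-like cells at 47.6 CPM (57 UMIs). None of the other 3 intervals overlaps the mesothelial one. No library of culture had more than 3 endothelial-like cells, so this comparison stops at day 0.

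**Figure D2:**
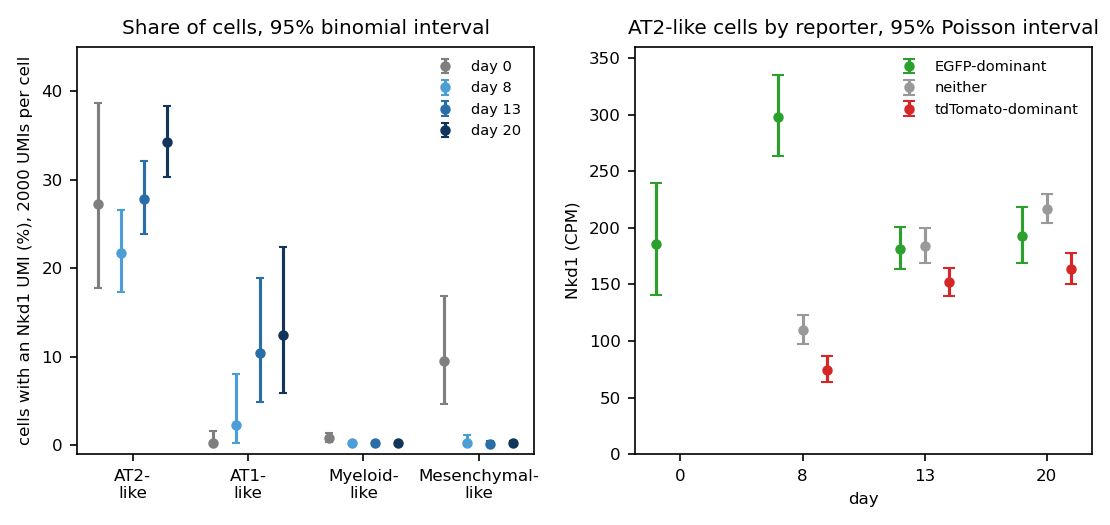
Left, share of cells with an Nkd1 UMI in 1 random thinning to 2000 UMIs per cell (y axis, percent) by class and day, with 95% binomial intervals. Right, Nkd1 level in CPM (y axis) by day in AT2-like cells split by reporter, with 95% Poisson intervals: at day 8 the EGFP-dominant cells stand at 298 CPM and the tdTomato-dominant ones at 74.4 CPM.

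Within AT2-like cells Nkd1 followed the reporter at day 8. Cells were called EGFP-dominant or tdTomato-dominant with at least 2 reporter UMIs and at least 80% from one reporter. The 53 EGFP-dominant cells of day 8 had 298 CPM of Nkd1 (264 to 336; 273 UMIs), the 105 tdTomato-dominant cells 74.4 CPM (63.6 to 86.5; 170 UMIs) and the 176 remaining cells 110 CPM (97.6 to 123). The EGFP-dominant level was 4.01 times the tdTomato-dominant one (3.30 to 4.88), the 1 member called in a split where 9.37% of 9726 genes were. After thinning, 40.3% of EGFP-dominant and 13.0% of tdTomato-dominant cells had an Nkd1 UMI on average over draws, and in 1 draw 35.8% (23.1 to 50.2) and 10.6% (5.40 to 18.1) had one. A single EGFP-dominant cell gave 38 of the 273 UMIs.

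The gap was smaller in the later libraries. EGFP-dominant and tdTomato-dominant AT2-like cells had 182 and 152 CPM of Nkd1 at day 13 (1.20-fold, 1.05 to 1.37; 101 and 184 cells) and 193 and 164 CPM at day 20 (1.17-fold, 1.01 to 1.37; 80 and 160 cells). No member was called on either day, among 6.95 and 7.92% of genes. Between the libraries the tdTomato-dominant level was thus higher on the later days, while the EGFP-dominant one was lower. The difference of the day 8 ratio from the later ones was not tested. At day 8 the ratio was 4.62 among cells that were not cycling, 3.95 with likely doublets removed, 4.27 without cells that carried a fibroblast UMI, 4.68 with at least 5 reporter UMIs and 3.11 with at least 95% of 1 reporter. At day 20 it was 0.939 without cells that carried a fibroblast UMI. The day 8 groups also differed in AT1 marker RNA, with 4862 CPM in EGFP-dominant and 2103 CPM in tdTomato-dominant cells, in median depth (11883 and 21154 UMIs) and in the share of cycling cells (30.2 and 41.9%). Mesenchymal marker RNA was at 111 and 10.9 CPM. The part of AT1 marker RNA in the Nkd1 ratio was not tested.

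Other Wnt targets were set beside it. Sp5, a transcription factor gene directly induced by beta-catenin, stood at 41.5 CPM in EGFP-dominant and 33.3 CPM in tdTomato-dominant cells of day 8 (1.25-fold, 0.82 to 1.86). Ccnd2, a D-type cyclin, was at 40.4 and 20.1 CPM (2.01-fold, 1.27 to 3.16), and was called higher at day 13 as well (3.49-fold, 2.52 to 4.87). At day 20 its ratio was 1.61 (1.12 to 2.29) and not called. Sox9 went the other way at day 20 and was called lower in EGFP-dominant cells, with 2 UMIs against 30. It reached 5 CPM in the tdTomato-dominant cells alone, so it could not have been called higher. No further one of these targets was called in the split. Only the sorted library lacked a split, with 62 EGFP-dominant and 7 tdTomato-dominant AT2-like cells.

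Cycling AT2-like cells, with UMIs of 2 or more cell cycle markers, were 34.4, 18.0 and 8.17% of the class at days 8, 13 and 20 and none of 97 at day 0. Nkd1 was lower in them on each culture day: 101 against 145 CPM at day 8, 106 against 191 CPM at day 13 and 135 against 206 CPM at day 20. Cycling cells were also deeper, with medians of 21563, 23050 and 25637 UMIs against 11921, 14502 and 14839.5 in the others and 4027 in the class at day 0, and the part of depth in these shares and in Nkd1 was not tested. The ratios of Nkd1 were 0.692 (0.594 to 0.805), 0.555 (0.481 to 0.637) and 0.657 (0.563 to 0.764), none of them 2-fold, where 11.0, 9.61 and 17.1% of genes were called. Apcdd1 was the 1 member called, at day 20, with 10 UMIs in cycling and 3 in other cells, and 5 of its UMIs came from a single cell. It reached 5 CPM in the cycling cells alone, so it could not have been called lower in them. AT2-like cells with over 20% Sftpc were set against those with 5 to 10%. Nkd1 had 132 against 111 CPM on day 8 (1.18-fold, 0.91 to 1.53), an interval that includes 1, 188 against 134 CPM on day 13 (1.40-fold, 1.20 to 1.64) and 206 against 148 CPM on day 20 (1.39-fold, 1.17 to 1.65). It was not called on any of these days, among 16.7, 18.6 and 23.3% of genes. Apcdd1 was the 1 member called, lower at day 20 in the cells with over 20% Sftpc, with 2 UMIs against 9. It reached 5 CPM in the cells with 5 to 10% Sftpc alone, so the opposite call was not possible.

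The remaining members were scarce in AT2-like cells. Rnf43 had 26.6 CPM (13.8 to 46.5; 12 UMIs) at day 0, 4.88 CPM (3.27 to 7.0; 29 UMIs) at day 8, 8.41 CPM (6.60 to 10.6; 74 UMIs) at day 13 and 9.25 CPM (7.46 to 11.3; 92 UMIs) at day 20. Znrf3, its partner, had 22.2 CPM (10.6 to 40.8; 10 UMIs), 5.72 CPM (3.96 to 7.99; 34 UMIs), 6.14 CPM (4.61 to 8.01; 54 UMIs) and 7.14 CPM (5.58 to 9.01; 71 UMIs). Both ligases were therefore highest in the sorted cells, where they rest on 12 and 10 UMIs. No interval of a culture day overlapped that of day 0 for either gene.

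Axin2 stood at 6.65 CPM (1.37 to 19.4; 3 UMIs) at day 0, 1.18 CPM (0.47 to 2.43; 7 UMIs) at day 8, 1.82 CPM (1.04 to 2.95; 16 UMIs) at day 13 and 3.82 CPM (2.70 to 5.25; 38 UMIs) at day 20. Its day 20 interval lies above that of day 8. Notum had 2, 3, 6 and 21 UMIs, or 4.44, 0.505, 0.682 and 2.11 CPM. Lgr5 had 0, 2, 6 and 15 UMIs and Apcdd1 0, 5, 3 and 13, with at most 1.51 and 1.31 CPM. Wif1 had 0, 0, 1 and 4 UMIs. For genes with 0 UMIs at day 0 the 3-UMI limit was 6.65 CPM (upper bound of the exact interval 8.18 CPM), so levels like those of culture could not be seen there.

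**Figure D3:**
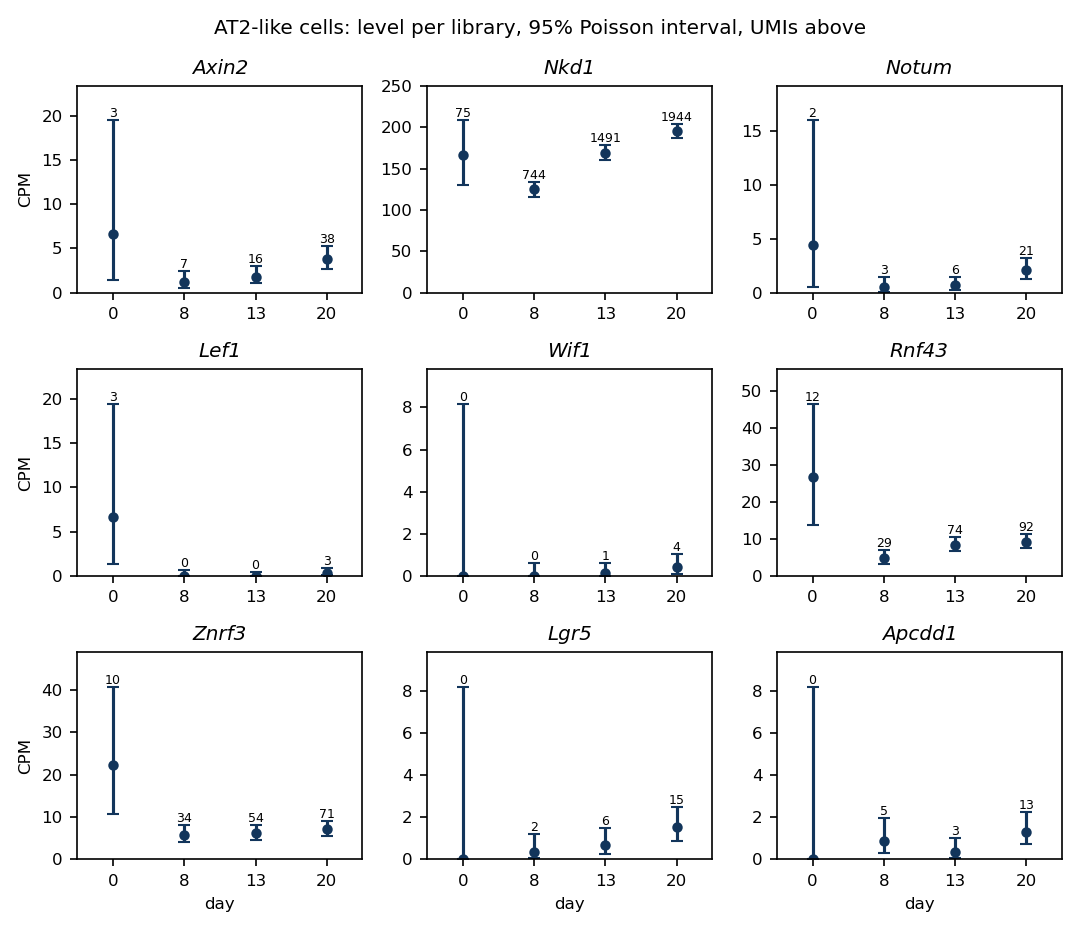
Level of each gene in AT2-like cells (y axis, CPM, own scale per panel) by day (x axis), with 95% Poisson intervals and the number of UMIs above each point. Nkd1 lies between 125 and 196 CPM, and the others lie below 10 CPM in the 3 culture libraries.

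Day 20 was compared with each earlier day. Against day 8, none of the 9 members was called and 3 of them (Nkd1, Rnf43 and Znrf3) reached 5 CPM, while 10.0% of 9676 genes were called. Rnf43 was 1.90 times its day 8 level (1.24 to 2.99) and Znrf3 1.25 times (0.82 to 1.94). Under 7 of 11 other settings Rnf43 was called, with ratios from 2.02 to 3.45. It was not with an Sftpc minimum of 2%, with no cell filter, as a mean over cells or without cycling cells. Below the 5 CPM floor, Axin2 was 3.25 times its day 8 level (1.43 to 8.61), Notum 4.19 times (1.25 to 21.9) and Apcdd1 1.55 times (0.52 to 5.57). Lgr5 had 15 UMIs against 2, a ratio of 2.99 (1.04 to 40.4) with the smaller side set to 3. The intervals of Axin2, Notum and Lgr5 exclude 1, and so do those of Nkd1 and Rnf43.

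Against day 13 none of the 9 was called either, among 5.07% of 9486 genes. Axin2 was 2.10 times its day 13 level (1.14 to 4.04), Notum 3.10 times (1.21 to 9.38) and Apcdd1 3.83 times (1.05 to 21.0), all below 5 CPM on both days. Rnf43 and Znrf3 were 1.10 (0.80 to 1.51) and 1.16 (0.81 to 1.69) times their day 13 level. Between days 13 and 8 none was called, among 5.55% of genes.

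Against the sorted cells, 3 of the 5 members that reached 5 CPM were called lower at day 20, where 25.1% of 10144 genes were called and 19.8% called lower. Rnf43 was 2.88-fold lower (1.43 to 5.27) and Znrf3 3.11-fold lower (1.43 to 6.05). The call of Lef1 rests on 3 UMIs on each day, and no fold is given. Lef1 and Axin2, which was not called, reached 5 CPM through day 0 alone and could not have been called higher. The median log2 ratio of genes at 20 CPM or more was itself -0.38. Relative to it the log2 ratios of Rnf43 and Znrf3 were -1.14 and -1.25, and both were still called. As a mean over cells, in which every cell weighs the same, the log2 ratio of Rnf43 at day 20 was -0.86, short of 2-fold and against -1.52 from the sums, and that of Znrf3 was -1.52. At day 8 the same 3 genes were called lower against day 0, among 27.3% of genes, with Rnf43 5.46-fold (2.54 to 11.0) and Znrf3 3.88-fold (1.71 to 8.03) lower. Rnf43, Lef1 and Axin2 reached 5 CPM there through day 0 alone, so they could not have been called higher. As a mean over cells the log2 ratios at day 8 were -1.80 and -1.06. AT2-like barcodes of culture that failed the cell filter had Rnf43 at 22.2 to 32.0 CPM and Znrf3 at 8.89 to 32.0 CPM, on 4 to 10 UMIs a day. Days 8 and 20 were compared with the same day 0 library. Nkd1, at 1.18 times its day 0 level at day 20, was not among them.

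**Figure D4:**
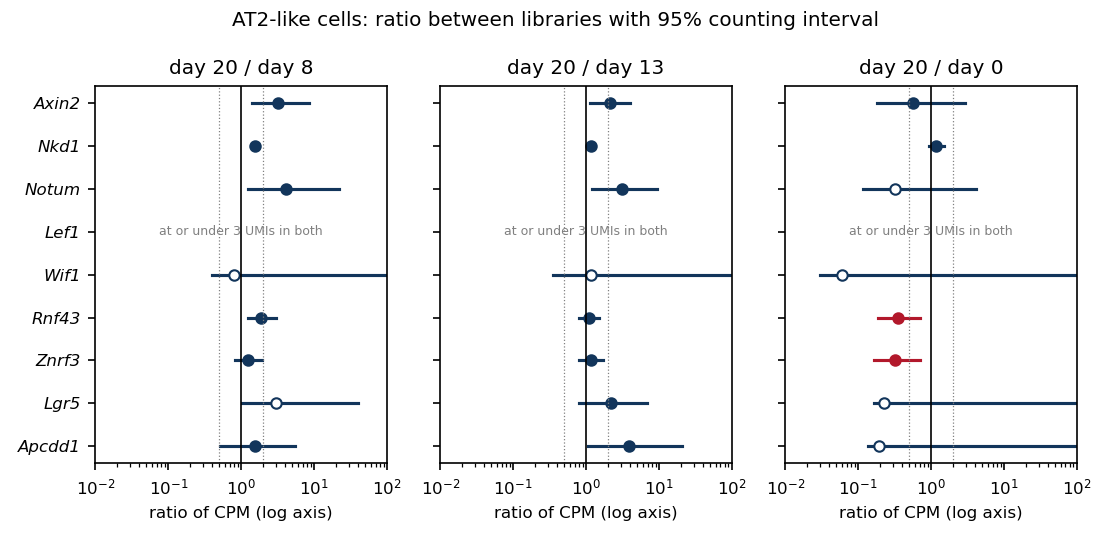
Ratio of CPM in AT2-like cells (x axis, log scale) at day 20 against days 8, 13 and 0, with exact 95% counting intervals. Red marks a called ratio, open circles a ratio in which a side under 3 UMIs was set to 3, and dotted lines mark 2-fold. Rnf43 and Znrf3 lie below 0.5 against day 0 alone.

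Detection in the same AT2-like cell was counted at day 20, in 1 thinning of 541 cells to 5000 UMIs. Of these cells 301 (55.6%) had an Nkd1 UMI, 25 had Rnf43, 22 had Znrf3, 8 had Axin2 and 6 each had Notum and Lgr5. Nkd1 was also found in 18 of the 25 Rnf43 cells, 12 of the 22 Znrf3 cells, 6 of the 8 Axin2 cells, 5 of the 6 Notum cells and 4 of the 6 Lgr5 cells. None of these shares was tested against the 55.6% of all cells.

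Axin2 was highest in mesenchymal-like cells in each of the 4 libraries. Mesenchymal-like cells had 3.41 CPM (40 UMIs) at day 8, 12.9 CPM (289 UMIs) at day 13 and 11.6 CPM (741 UMIs) at day 20, below the 38.6 CPM (20 UMIs) of the sorted lung. Axin2 rose 3.76-fold from day 8 to 13 (2.70 to 5.38), the 1 member called, where 2.80% of genes were called, and was 3.38 times the day 8 level at day 20 (2.46 to 4.78), where 3.38% were. After thinning, 0.833, 4.03 and 3.5% of mesenchymal-like cells had an Axin2 UMI. Lef1 went the other way, from 5.04 CPM (59 UMIs) at day 8 to 3.65 CPM at day 13 and 1.92 CPM (123 UMIs) at day 20, 2.63-fold lower than at day 8 (1.89 to 3.61). Axin2 and Lef1 were the 2 members called between days 8 and 20 out of 4 that reached 5 CPM. Each reached 5 CPM only on the day on which it was higher, so a call in the other direction was not possible. The same holds for Axin2 between days 8 and 13. Apcdd1 was steadier, with 19.9 CPM (233 UMIs), 25.4 CPM (571 UMIs) and 19.4 CPM (1241 UMIs), and 19.3 CPM (10 UMIs) at day 0. Against the day 0 mesenchymal-like cells 7 of 8 members that reached 5 CPM were called lower at day 20. Of all genes tested 44.4% were called there in either direction. Between days 20 and 8 only 4 members reached 5 CPM, so several of the 8 passed that floor through day 0 alone. Those members could not have been called higher. The cultures held an added fibroblast line and the sorted lung did not, so culture and cell source cannot be told apart.

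The fibroblast RNA found in other classes was set beside these levels. Summed CPM of the mesenchymal markers in AT2-like cells was 26.6 at day 0 (3 of 9 detected) and 93.0, 169 and 373 at days 8, 13 and 20 (9 of 9). At day 20 myeloid-like cells had Axin2 at 19.6% and Apcdd1 at 19.3% of the mesenchymal-like level, beside 16.2% for Col1a1, 18.3% for Col1a2, 17.0% for Col3a1 and 14.9% for Dcn. In AT2-like cells Apcdd1 stood at 6.76%, near Col1a1 at 5.76%, Col1a2 at 5.84%, Col3a1 at 4.77% and Dcn at 5.93%, whereas Axin2 stood at 33.1%. The ratio of Axin2 between days 20 and 8 in AT2-like cells was 1.40 on the log2 scale without cells that had a UMI of these 4 genes, against 1.70 with them. The part of fibroblast RNA in the remaining AT2-like level was not tested.

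**Figure D5:**
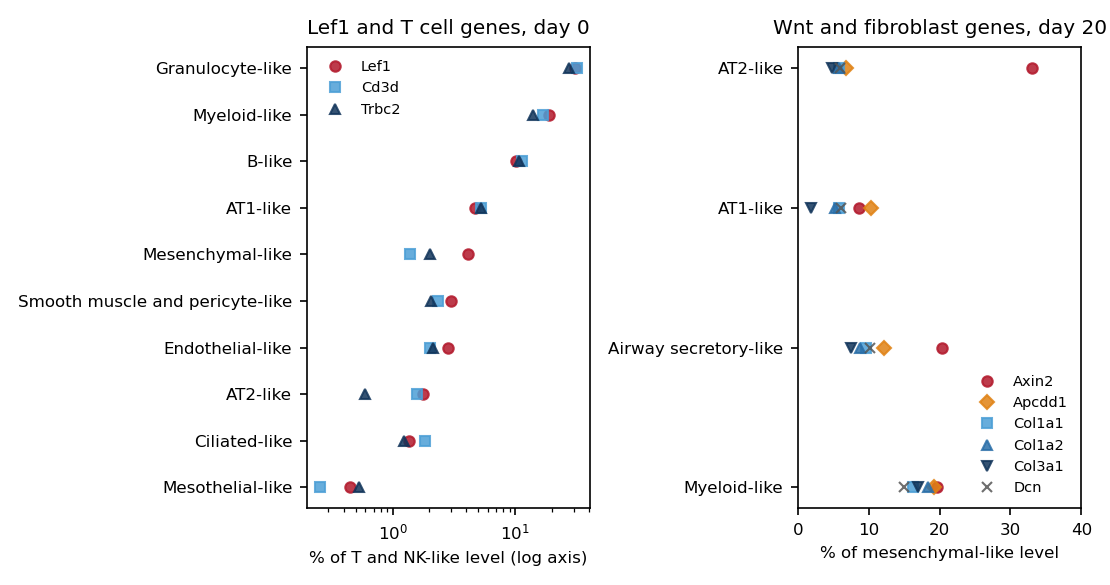
Level of a gene in a class as a percent of its level in the class with most of it (x axis; log on the left). Left, Lef1 and the T cell genes Cd3d and Trbc2 at day 0 against T and NK-like cells. Right, Axin2, Apcdd1 and 4 fibroblast genes at day 20 against mesenchymal-like cells, where Axin2 in AT2-like cells stands apart at 33.1%.

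Lef1 belonged to T and NK-like cells of the sorted lung, at 374 CPM (1619 UMIs, 994 cells). The 70 T and NK-like cells of day 20 had 19.3 CPM (14 UMIs), 19.4-fold lower (11.5 to 35.6), in a comparison where 27.1% of genes were called. The genes that most set this class apart from the rest of its library included the cell cycle markers Top2a and Ube2c at day 0, and Gzmb, Nkg7 and Klrd1 at day 20. Trbc1, Trbc2 and Cd3g were among them on both days. Such genes depend on the other cells of each library, so they do not compare the class between days. Whether the class held different cells on these days, and the part of this in the Lef1 fold, was not tested. Granulocyte-like, myeloid-like and B-like cells of day 0 also had Lef1, at 116, 70.1 and 38.0 CPM. Where a class had to exceed the next marker list by 0.5 natural log units, they had 110, 44.3 and 25.2 CPM. AT1-like cells had 17.6 CPM, against 11.3 CPM under that margin and 9.63 CPM with likely doublets removed. T cell RNA was found in the same classes at similar shares. As a share of the T and NK-like level, Lef1 stood at 31.0% in granulocyte-like, 18.8% in myeloid-like, 10.2% in B-like and 4.71% in AT1-like cells, beside 32.2, 16.9, 11.3 and 5.28% for Cd3d and 27.3, 13.9, 10.7 and 5.27% for Trbc2. In myeloid-like and granulocyte-like cells with no T cell UMI the Lef1 level was 4.34 and 4.42 CPM. Mesenchymal-like cells, at 4.13% (8 UMIs), were above their Cd3d and Trbc2 shares of 1.38 and 2.02%. In AT2-like cells of day 0 the 3 Lef1 UMIs are 1.78% of the T and NK-like level, with Cd3d at 1.58% and Trbc2 at 0.601%. AT2-like cells had Lef1 at 0, 0 and 3 UMIs at days 8, 13 and 20, with a 3-UMI limit of 0.505 CPM at day 8 and 0.341 CPM at day 13 (upper bounds of the exact interval 0.62 and 0.419 CPM).

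Wif1 was a ciliated gene of the sorted lung. Ciliated-like cells had 109 CPM (254 UMIs, 555 cells) at day 0 and 3.75 CPM (5 UMIs, 50 cells) at day 13, 29.0-fold lower (12.3 to 90.0), where 33.1% of genes were called. Lef1 and Rnf43 were the other members called there, both lower. Wif1, Lef1 and Rnf43 each reached 5 CPM through day 0 alone, so none of them could have been called higher. Mesenchymal-like cells of day 0 had Wif1 at 19.3 CPM (10 UMIs), and no class of the cultured libraries exceeded the 3.75 CPM of ciliated-like cells. Rnf43 in ciliated-like cells went from 12.0 CPM (28 UMIs) to 2.25 CPM (3 UMIs). The organoid libraries held 22, 50 and 30 ciliated-like cells, so the day 13 value alone could be set beside day 0.

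Rnf43 and Znrf3 were shared by the epithelial classes. Airway secretory-like cells had Rnf43 at 10.3, 10.9 and 7.88 CPM and Znrf3 at 7.60, 7.27 and 6.04 CPM at days 8, 13 and 20, and basal-like cells of day 13 had 9.07 and 10.7 CPM. At day 8 AT2-like cells were 2.12-fold below airway secretory-like cells in Rnf43 (1.27 to 3.56), and at days 13 and 20 the classes differed by under 2-fold. In AT1-like cells Rnf43 went from 27.0 CPM (49 UMIs) at day 0 to 6.80 CPM (10 UMIs), 19.2 CPM (23 UMIs) and 9.94 CPM (10 UMIs), and was called higher at day 13 against day 8 (2.83-fold, 1.29 to 6.65) among 6.98% of genes. Rnf43 was low in mesenchymal-like and myeloid-like cells of culture, at no more than 0.706 CPM. At day 20 AT2-like cells were 19.1-fold (12.6 to 29.8) above the former and 74.5-fold (36.3 to 178) above the latter, where 44.3 and 41.3% of genes were called. Znrf3 was found in mesenchymal-like cells at 5.20 to 6.16 CPM in culture, like the AT2-like level.

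Genes with a pattern like Axin2, Notum and Wif1 were sought over the 29 sums of class and day among 11773 genes, as the highest Pearson r of log2(CPM + 1). Among the genes most like Axin2 were Prelp (r = 0.84) and Sparcl1 (r = 0.84), both highest in sorted mesenchymal-like cells. Notum was most like Ppp4r4 (0.83), Cutal (0.77) and Enpep (0.76), the last 2 highest in sorted AT2-like cells. Wif1 was most like Chuk (0.90), Adamts20 (0.86) and Col8a2 (0.86), highest in sorted ciliated-like cells. Sums from one library share its depth and preparation, so these are descriptions.

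The rest of the pathway gave the setting of these genes. Of 19 Wnt ligands, 4 reached 5 CPM in AT2-like cells of day 20 or 8, and 1 was called: Wnt7a was lower at day 20, with 3 UMIs against 40, a ratio of 0.0448 (0.00888 to 0.141). The median log2 ratio of these 4 was -0.36, against -0.08 over all genes tested. Porcn, the enzyme that attaches the lipid to Wnt, was at 28.1 CPM (167 UMIs) on day 8 and 7.44 CPM (74 UMIs) on day 20, a ratio of 0.265 (0.199 to 0.350). It was at 6.65 CPM (1.37 to 19.4; 3 UMIs) on day 0 and 10.8 CPM (95 UMIs) on day 13, so day 8 was the highest library. Wls, which carries Wnt to the surface, was at 107 CPM on day 8 and 126 CPM on day 20. Fzd1 was the 1 receptor of 11 called, at 11.9 CPM on day 8, 11.5 CPM on day 13 and 24.7 CPM on day 20 (2.07-fold over day 8, 1.59 to 2.74). None of 10 destruction complex genes and none of 10 nuclear partners was called between days 8 and 20. Of 7 other targets Sox9 alone was called, higher at 5.03 CPM (50 UMIs) than at 2.19 CPM (13 UMIs). Over all genes, 10.0% of 9676 were called between these days, the share beside which the counts of these lists stand. Wnt7a and Sox9 are named because they were called, a choice made after their values were seen. Each reached 5 CPM only on the day on which it was higher, so a call in the other direction was not possible. Sp5 had 31.0, 35.3, 36.9 and 19.2 CPM at days 0, 8, 13 and 20, and thus did not follow Nkd1 to its highest level at day 20. Ccnd1 had 140, 476, 425 and 238 CPM.

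Against day 0, 3 of 12 receptors, 6 of 11 destruction complex genes and 6 of 12 nuclear partners were called lower at day 20 and none was called higher, where 19.8% of all genes tested were called lower. With ratios scaled by their median, 3, 3 and 5 of these genes were called lower, and 10.0% of all genes. In the other lists, none of 3 ligands, 2 ligand secretion genes and 1 further inhibitor was called without scaling, and 2 of 6 other targets were called lower. After scaling 1 other target was called higher and none lower. Examples of genes called lower before that scaling were the receptors Fzd5 (48.8 to 18.5 CPM) and Fzd7 (39.9 to 13.7 CPM). Others were Dvl1, a Dishevelled that relays the receptor signal (35.5 to 15.8 CPM), and the corepressor Tle4 (77.6 to 29.2 CPM). Without scaling the median log2 ratios of receptors, destruction complex genes and nuclear partners were -0.66, -1.09 and -1.20, against -0.38 over all genes tested.

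Several ligands had their highest levels in other classes. Wnt4 was the most abundant in culture, with 612 CPM (3780 UMIs) in basal-like cells of day 13, 133, 283 and 418 CPM in airway secretory-like cells and 114, 175 and 234 CPM in AT1-like cells at days 8, 13 and 20. AT2-like cells had Wnt4 at 10.1, 23.4 and 8.95 CPM, 2.62-fold lower at day 20 than at day 13, and no UMI at day 0, with a 3-UMI limit of 6.65 CPM. Myeloid-like cells had Wnt4 at 2.36, 20.9 and 4.52 CPM on the same culture days, so the day 13 levels of these classes were close. The part of free RNA in the AT2-like Wnt4 level was not tested. Wnt7b was at 27.4, 34.4 and 34.9 CPM in airway secretory-like cells and at 12.2, 30.1 and 19.9 CPM in AT1-like cells, whose day 13 interval (21.1 to 41.6) overlaps the airway one, against 8.91, 9.43 and 6.13 CPM in AT2-like cells. Mesenchymal-like cells had Wnt6 at 59.8, 70.3 and 52.4 CPM, Wnt10a at 36.4, 25.3 and 21.6 CPM and Wnt5a, a ligand best known outside the beta-catenin branch, at 17.1, 24.4 and 34.6 CPM. Wnt10a was higher in basal-like cells of day 13, at 65.8 CPM (406 UMIs). AT2-like cells had Wnt5a at 8.07, 6.71 and 9.55 CPM. Mesenchymal-like cells also had Rspo2, an R-spondin, at 8.96, 6.63 and 6.39 CPM. None of the 6 R-spondins and other LGR receptors reached 5 CPM in AT2-like cells, with Lgr4 at 1.21 to 2.22 CPM over the 4 libraries. In the sorted lung the highest R-spondin level was Rspo1 in mesothelial-like cells, at 698 CPM (836 UMIs).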

How the data were processed

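Each of the 4 samples was a 10x Chromium 3′ v3.1 library of a single-cell suspension, 1 per day, although nuclear RNA is the labelled molecule. The authors deposited raw UMI counts per gene and cell barcode, made with Cell Ranger 7.0.1 on mm10 per the submitters' processing notes. No cell annotation was used. Kept barcodes had at least 500 genes and at most 15% mitochondrial UMIs. AT2-like cells had at least 5% Sftpc UMIs; other cells took the marker list with the highest mean log-normalized level, with at least 3 markers detected. Counts were summed per class and day (at least 50 cells) as CPM. A side of a ratio under 3 UMIs was set to 3. All members are named; other lists are given by counts, with at most 6 genes each, those with most UMIs. Members and lists were chosen with earlier results of these data known. Scrublet's automatic threshold marked 0 cells in every library, so doublets were kept, and an alternative removed the 523 to 853 highest-scoring cells per library. Other alternatives changed the Sftpc and cell filters, the scaling, the floor, the fold and the cells used. One gene with a pattern like that of Axin2 is not reported here. The ratio code was tested on simulated data. Total UMIs ran from 31850454 to 154258012 per library. Software was Python 3.11.15, NumPy 2.4.6, SciPy 1.17.1, pandas 2.3.3, Scanpy 1.11.5 and matplotlib 3.10.9.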

Additional observations from a re-analysis of the deposited data

Results flagged for a closer look

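AT2-like barcodes that failed the cell filter were used in no comparison above, and they also held Nkd1. The level was 165 CPM at day 0 (41 barcodes, 7 UMIs), 144 CPM at day 8 (118 barcodes, 65 UMIs), 197 CPM at day 13 (63 barcodes, 37 UMIs) and 149 CPM at day 20 (83 barcodes, 37 UMIs). Each was above the limit that a count of 0 allows. Rnf43 was above that limit on the 3 culture days in the same barcodes, at 22.2 CPM at day 8 (10.7 to 40.9; 10 UMIs), 32.0 CPM at day 13 (11.7 to 69.6; 6 UMIs) and 24.2 CPM at day 20 (8.87 to 52.6; 6 UMIs). Its intervals of days 8 and 13 lie above those of the kept AT2-like cells, and that of day 20 overlaps. Znrf3 was above it as well, at 8.89 CPM at day 8 (2.42 to 22.8; 4 UMIs), 32.0 CPM at day 13 (11.7 to 69.6; 6 UMIs) and 16.1 CPM at day 20 (4.39 to 41.2; 4 UMIs). The kept sorted cells, the reference for the lower levels in culture, had 26.6 and 22.2 CPM of these genes, inside the intervals of days 8, 13 and 20 for both. With no cell filter the log2 ratios of day 20 to day 0 were -1.66 for Rnf43 and -1.46 for Znrf3.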

How the results depend on the processing

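With 1 library per day no replicate could be left out. No paired analysis was possible because each day has a single library. No called ratio changed direction. Members called in AT2-like cells between days 20 and 8 numbered 0, and 1 with an Sftpc minimum of 10%, with likely doublets removed, with at least 1000 genes and at most 10% mitochondrial UMIs, scaled without surfactant genes, scaled by the median ratio or without cells with a fibroblast UMI (added after seeing the data). They numbered 2 without cells with markers of other cell types, 2 at 1.5-fold and 3 with no floor. Between days 20 and 13 the number went from 0 to 3 with no floor. Averages over draws and the median scaling of pathway counts were also added after seeing the data. Between days 13 and 8 it went from 0 to 1 without cells with markers of other types and to 1 at 1.5-fold. Between days 8 and 0 it went from 3 to 5 with no cell filter. Genes called between days 20 and 8 went from 969 to 405 at a 20 CPM floor, 1667 with none, 2116 at 1.5-fold and 454 at 3-fold. Between days 20 and 13 they went from 481 to 206, 1035, 1406 and 158, and between days 13 and 8 from 532 to 171, 1091, 1296 and 242, in the same order. At 3-fold, genes called went from 2551 to 1224 between days 20 and 0 and from 2810 to 1499 between days 8 and 0. Higher calls were 38.8% of calls between days 20 and 8 and 49.2% scaled without surfactant genes. Scaling by the median ratio took that share from 21.4 to 51.6% between days 20 and 0 and from 28.3 to 47.7% between days 8 and 0. Sorted AT2-like cells were 97 with 6.65 CPM as the limit for 0 UMIs, which bounds what day 0 can show.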
